A study of Rattus norvegicus with 12 samples.

Results

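Bdnf, Ntf3 and the receptors that bind neurotrophins were followed through 12 RNA libraries from rat cortical neuron cultures. The genes were the ligands Bdnf and Ntf3, the kinase receptors Ntrk2 and Ntrk3, the low-affinity receptor Ngfr and the sorting receptor Sort1. Every RefSeq entry carrying these 6 gene symbols was kept from the table of all 12 libraries, which gave 21 of 18697 distinct entries. Bdnf had 10 entries, Ntf3 had 4, Ntrk3 had 3, Ntrk2 had 2, and Ngfr and Sort1 had 1 each. All 21 passed the filter on low values, Ngfr through only 4 libraries that reached it.

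The cultures were primary cortical neurons of Wistar rats at embryonic day 18, and the libraries held total RNA depleted of ribosomal RNA. There were 4 groups of 3 libraries: Ehmt1 shRNA knockdown with tetrodotoxin (TTX), knockdown untreated, wild-type with TTX and wild-type untreated. TTX blocks voltage-gated sodium channels and so stops action potentials, and Ehmt1 encodes a methyltransferase of histone H3 lysine 9. The sample titles name no control hairpin for the wild-type cultures, so loss of Ehmt1 and any effect of delivering a hairpin cannot be told apart. The dose and duration of TTX are not given in the sources used here. Nothing in the labels says that the libraries of a group came from separate preparations, so p-values measure the spread between these libraries, which may be technical.

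Neurotrophins are secreted growth factors that are made as precursors and cut to their mature form. Mature BDNF acts mainly through TrkB, the product of Ntrk2, and neurotrophin-3, the product of Ntf3, acts mainly through TrkC, the product of Ntrk3. The precursors bind p75, the product of Ngfr, together with sortilin, the product of Sort1, and sortilin also sorts pro-BDNF inside the cell. In cortical neurons Bdnf is among the best known genes whose transcription follows calcium entry and firing. It is read from several alternative starts, each with its own first exon spliced to a shared coding exon, and CREB-family factors bind near some of them. TrkB is made as a full-length kinase and as a truncated form without the kinase domain, and the truncated form is abundant in astrocytes.

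Because Bdnf is read from several starts, its annotated starts were searched for motifs, and the windows with a match are shown. The 10 Bdnf entries were not assigned to single windows. RefSeq gave 6 windows for Bdnf on GRCr8, each reaching from 250 bases before a start to 50 bases after it. The letters TGACG, the core of the CREB-binding element, occurred on either strand in 1 of the 6, and the letters CACGTG, an E-box, in another. Capitals mark these letters in the sequences, the TGACG core being read there on the opposite strand.
Bdnf start, GRCr8 chr3:116637608-116637907 (+ strand): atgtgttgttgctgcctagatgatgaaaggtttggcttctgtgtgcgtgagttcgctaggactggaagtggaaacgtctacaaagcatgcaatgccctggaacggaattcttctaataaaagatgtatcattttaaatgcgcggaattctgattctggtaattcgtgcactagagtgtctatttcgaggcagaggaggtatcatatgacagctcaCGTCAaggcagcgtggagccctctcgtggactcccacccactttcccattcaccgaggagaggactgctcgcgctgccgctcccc
Bdnf start, GRCr8 chr3:116620585-116620884 (+ strand): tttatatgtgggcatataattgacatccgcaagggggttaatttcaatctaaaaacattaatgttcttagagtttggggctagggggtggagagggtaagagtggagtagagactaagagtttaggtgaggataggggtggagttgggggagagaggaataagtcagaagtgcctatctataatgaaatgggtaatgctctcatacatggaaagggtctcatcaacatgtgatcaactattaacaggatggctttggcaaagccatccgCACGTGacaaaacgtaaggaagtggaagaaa

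Relative to the start, the TGACG core in the first of these windows began at position -34. The E-box in the other window began at position 20, and both positions hold to within 1 base. No window of Bdnf, Ntf3 or Sort1 held the full palindrome TGACGTCA. Among 33464 windows of the same length over all genes, 21.2% held TGACG, 6.4% held CACGTG and 1.8% held TGACGTCA. The 3 windows of Ntf3 and the 1 window of Sort1 held none of the 3 motifs. A match is a description of the letters and not evidence that a factor was bound.

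Levels are given in read equivalents, scaled by the size factor of each library, where 1 read equivalent is the base coverage that a read of 42 nt adds. Before that scaling, the sum over entries lay between 15108848 and 24787516 read equivalents a library. A transcript's value grows with its length, so levels were not compared between genes. Changes were tested with limma on log2(read equivalents + 1) over 12938 entries with Benjamini-Hochberg adjustment, so that fold changes of low genes are understated. The fit with the 4 groups alone is given with a second fit in which each culture, a TTX and an untreated library with the same genotype and number, was a term. Ehmt1, the target of the hairpin, had 1187, 1519 and 1162 read equivalents in the knockdown libraries 1, 2 and 3 with TTX and 1044, 1535 and 1037 in those untreated. It had 2039, 1739 and 1839 in wild-type with TTX and 1772, 1586 and 1599 in wild-type untreated. The highest knockdown library was lower than the lowest wild-type library, and the 2 knockdown libraries numbered 2 came closest to wild-type.

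Marker lists moved with TTX and differed between genotypes. The summed level of 10 neuron markers was 64119 to 98029 with TTX against 80137 to 118828 untreated in knockdown, and 67372 to 79381 with TTX against 78183 to 96924 untreated in wild-type. It was lower with TTX in 6 of 6 pairs, and 5 of the 10 genes passed as lower once each culture was a term, where 8.07% of all entries did. The summed level of 10 astrocyte markers was 112728 to 186896 with TTX against 105746 to 165090 untreated in knockdown, and 128871 to 164636 with TTX against 101390 to 150181 untreated in wild-type. It was higher with TTX in 6 of 6 pairs, although 0 of the 10 genes passed, and the sums of the oligodendrocyte and progenitor lists were also higher in 6 of 6. Of 8 progenitor markers 4 passed as higher, and of 10 oligodendrocyte markers 1, where 5.59% of all entries did. Microglial markers summed to 173.5 or less in every library, with P2ry12 and Tmem119 under 10 throughout. Of 8 endothelial and mural markers, 6 were under 10 in every library. Between genotypes over both treatments, 9 of 10 neuron markers lay higher in knockdown (median log2 change 0.38), while 8 of 10 oligodendrocyte markers (median -1.18), 7 of 10 astrocyte markers (median -0.11) and all 4 tested microglial markers (median -1.43) lay lower. The median over all entries was 0.003, and 0 of these genes passed in either fit. The part of these shifts in the results below was not tested. In bulk RNA, fewer cells of a type and less RNA per cell cannot be told apart.

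Bdnf was lower with TTX than without in 6 of 6 pairs, and the size of the drop was uneven. The entry with the highest mean, NM_001270630, held 185.8, 89.6 and 160.1 read equivalents in knockdown libraries 1, 2 and 3 with TTX, against 283.0, 114.9 and 199.4 in the untreated libraries of the same numbers. In wild-type it held 82.2, 138.0 and 74.7 with TTX, against 106.6, 337.6 and 220.4 untreated. The groups overlapped in both genotypes, knockdown library 2 untreated lying below knockdown libraries 1 and 3 with TTX, and wild-type library 1 untreated below wild-type library 2 with TTX. Within pairs, the untreated level was 1.52, 1.28 and 1.25 times the TTX level in knockdown cultures 1, 2 and 3, and 1.30, 2.45 and 2.95 times in wild-type cultures 1, 2 and 3. Of all entries tested, 12.1% were lower with TTX in 6 of 6 pairs. By group mean, the order from the highest was 221.6 ± 115.5 in wild-type untreated, 199.1 ± 84.0 in knockdown untreated, 145.2 ± 49.8 in knockdown with TTX and 98.3 ± 34.6 in wild-type with TTX (SD, n = 3 each), and neighbours in that order differed by less than the larger of their SDs.

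**Figure D1:**
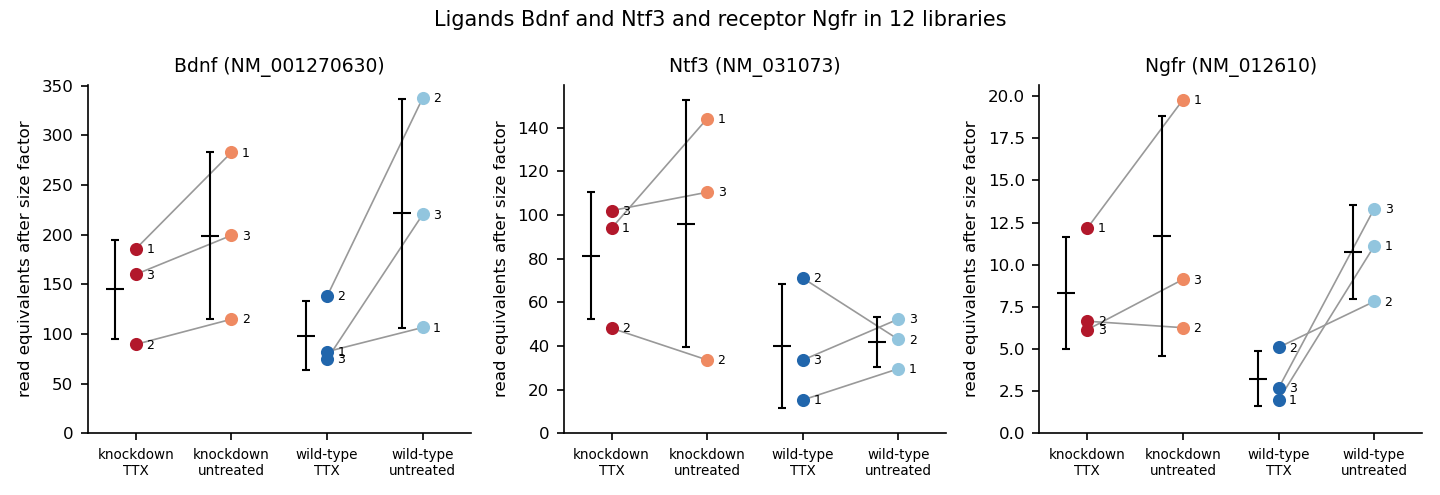
Read equivalents after size factor (y axis, linear from 0) of Bdnf, Ntf3 and Ngfr in the 4 groups; points are libraries with their numbers, grey lines join the TTX and untreated libraries of a pair, and bars are the mean and SD of 3 libraries. All 6 Bdnf lines run upwards from TTX to untreated, the steepest in wild-type cultures 2 and 3, while Ntf3 lines run both ways.

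Tested with groups alone, Bdnf did not pass in any comparison. Its TTX change over both genotypes was -0.75 on the log2 scale (SE 0.33, limma adjusted p = 0.496), a fit in which 0.193% of entries were called. With each culture as a term the same change had an SE of 0.15 and passed (limma adjusted p = 0.0305), where 13.7% of all entries were called. Over the alternatives other than a single library or pair left out, mostly refits of groups alone, the adjusted p of this change lay between 0.016 and 0.63. The call was lost when any single pair other than wild-type pair 1 was left out, with adjusted p up to 0.113, and was 0.00884 without wild-type pair 1. In knockdown the change was -0.43 (SE 0.22, limma adjusted p = 0.361 with each culture as a term), and with groups alone it was -0.77 without the untreated library 2 and -0.11 without the TTX library 2. In wild-type it was -1.07 (SE 0.47 with groups alone, limma adjusted p = 0.856; SE 0.22 with each culture as a term, adjusted p = 0.055), and with groups alone -1.52 without the untreated library 1 and -0.69 without the untreated library 2. With culture as a random block it passed in wild-type (limma adjusted p = 0.0298), where 6.53% of entries were called, and over the same alternatives its adjusted p lay between 0.0298 and 0.963. With each culture as a term 0.642% of entries were called in knockdown and 3.21% in wild-type.

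The difference between the 2 TTX changes of Bdnf was itself tested. The knockdown change minus the wild-type change was 0.64 (SE 0.66, limma adjusted p = 1.00 with groups alone; SE 0.31, adjusted p = 0.971 with each culture as a term). With groups alone it was 0.26 without the wild-type untreated library 2 and 1.09 without the wild-type untreated library 1. In either fit 0 of 12938 entries were called for this difference, with 53 entries at an unadjusted p under 0.05 in limma with groups alone and 486 with each culture as a term. Wild-type culture 1, whose drop was 1.30 times, lay within the range of the knockdown cultures, and wild-type cultures 2 and 3 lay above it.

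The 10 Bdnf entries are nearly the same measurement. In every library the lowest of them held 86.3% to 96.9% of the value of the highest, and over the 10 entries the TTX change ran from -0.45 to -0.42 in knockdown and from -1.15 to -1.07 in wild-type. What single entries held beyond the lowest entry of the same library was small. NM_001270630, protein isoform 1, held 10.6, 3.0 and 10.8 such reads before size factors in knockdown libraries 1, 2 and 3 with TTX, against 9.8, 9.5 and 12.4 untreated, and 5.9, 21.6 and 6.3 in wild-type with TTX against 10.8, 11.8 and 11.2 untreated. It had some in all 12 libraries. NM_001270633 held 3.0, 0 and 6.1 in knockdown with TTX against 12.0, 3.5 and 10 untreated, and 0, 2.0 and 2.0 in wild-type with TTX against 1.0, 9.0 and 3.0 untreated. Its extra reads were fewer with TTX in each of the 6 pairs, summing to 9.1 with TTX against 25.5 untreated in knockdown, and to 4.0 with TTX against 13.0 untreated in wild-type. The corresponding sums of NM_001270630 were 24.4 with TTX against 31.7 untreated in knockdown, and 33.7 with TTX against 33.9 untreated in wild-type. These counts are too few to say more of single first exons, and no test was made of them.

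**Figure D2:**
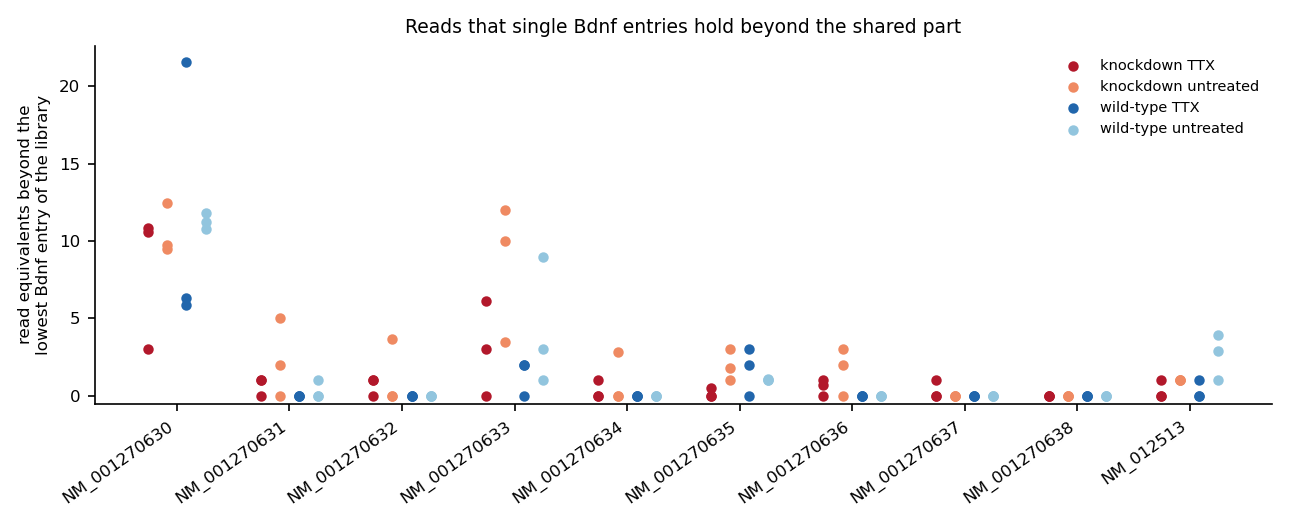
Read equivalents before size factor (y axis, linear from 0) that each Bdnf RefSeq entry (x axis) held beyond the lowest Bdnf entry of the same library; points are the 12 libraries, coloured by group. NM_001270630 and NM_001270633 stand above 5 in several libraries, and the other entries lie at or below 5.02.

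Ntf3, the ligand of TrkC, showed no shared direction with TTX and ran higher in most knockdown cultures. NM_031073 held 94.0, 48.2 and 102.0 read equivalents in knockdown with TTX, against 144.2, 33.6 and 110.5 in knockdown untreated. It held 15.3, 71.1 and 33.6 in wild-type with TTX, against 29.6, 43.0 and 52.4 in wild-type untreated. The level was lower with TTX in 4 of 6 pairs and higher in those numbered 2 of both genotypes. Between genotypes the groups overlapped only through the knockdown libraries numbered 2, which were also the ones with the highest Ehmt1. Averaged by culture, Ntf3 was 88.7 ± 41.9 in knockdown and 40.8 ± 17.4 in wild-type (SD, n = 3 cultures each), a ratio of 2.17 with an exact permutation test (two-sided) at p = 0.3, where 0.1 is the smallest p that 3 against 3 allows. Over both treatments the neuron markers also lay higher in knockdown in 9 of 10 genes and the oligodendrocyte markers lower in 8 of 10, and the part of these in the Ntf3 levels was not tested.

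In limma with groups alone, the knockdown minus wild-type change of Ntf3 was 1.09 over both treatments (SE 0.44, adjusted p = 0.25), 0.99 untreated (SE 0.62, adjusted p = 0.792) and 1.19 with TTX (SE 0.62, adjusted p = 0.636). Untreated it was 0.58 without knockdown library 1 and 1.61 without knockdown library 2, and with TTX 0.65 without wild-type library 1 and 1.72 without wild-type library 2. None of these passed, and 0.0309% of entries were called over both treatments. The order of group means was knockdown untreated at 96.1 ± 56.7, knockdown with TTX at 81.4 ± 29.1, wild-type untreated at 41.6 ± 11.4 and wild-type with TTX at 40.0 ± 28.5 (SD, n = 3 each). The step between the knockdown and wild-type groups exceeded the SD of each group beside it, while the other neighbours differed by less than theirs. Of the 4 Ntf3 entries, NM_001270868 and NM_001270869 held the same value in every library, and the lowest entry held at least 80.7% of the highest. The 4 are therefore nearly a single measurement.

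Ntf4, encoding neurotrophin-4, another ligand of TrkB, stayed at or under 6.7 read equivalents in every library and was below the filter.

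Ntrk2, encoding TrkB, was deposited as 2 entries, whose values differ enough to be read apart. NM_001163168, protein isoform 2, held 20404, 21925 and 26259 read equivalents in knockdown with TTX, against 17366, 24026 and 22736 in knockdown untreated. It held 31042, 25412 and 34378 in wild-type with TTX, against 18523, 23952 and 27755 in wild-type untreated. Its level was higher with TTX in 5 of 6 pairs, knockdown pair 2 being the exception. The groups overlapped within each genotype, while with TTX 2 of the 3 wild-type libraries lay above every knockdown library.

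NM_012731, protein isoform 1, differed less between groups. It held 10289, 11484 and 11919 read equivalents in knockdown with TTX, against 10217, 12471 and 11126 untreated, and 12817, 11063 and 14320 in wild-type with TTX, against 9444, 11020 and 12716 untreated. It too was higher with TTX in 5 of 6 pairs, and in wild-type pair 2 by 1.00 times. In limma with each culture as a term, the TTX change of NM_001163168 was 0.10 in knockdown (SE 0.14, adjusted p = 0.758) and 0.38 in wild-type (SE 0.14, adjusted p = 0.171). That of NM_012731 was -0.0032 in knockdown (SE 0.10, adjusted p = 0.991) and 0.21 in wild-type (SE 0.10, adjusted p = 0.257). Neither entry passed in any comparison, with groups alone or with each culture as a term.

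Between genotypes, NM_001163168 averaged 22119 ± 2903 over knockdown cultures and 26844 ± 3657 over wild-type cultures (SD, n = 3 each). The 3 knockdown cultures lay below the 3 wild-type cultures, p = 0.1 by an exact two-sided permutation test, the smallest possible, and 0.7 after adjustment over the 7 member entries tested this way. The share of all entries whose cultures separate in this way was not computed, so the separation is a description. Oligodendrocyte markers lay lower in knockdown in 8 of 10 genes (median -1.18) and astrocyte markers in 7 of 10 (median -0.11), and the part of these in the Ntrk2 levels was not tested. In limma with groups alone the knockdown minus wild-type change was -0.26 over both treatments (SE 0.14, adjusted p = 0.351) and -0.40 with TTX (SE 0.19, adjusted p = 0.614). For NM_012731 the means were 11251 ± 894 in knockdown and 11897 ± 1405 in wild-type cultures (SD, n = 3 each; exact permutation p = 0.6).

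The ratio of the 2 Ntrk2 entries within a library cancels the size factor, and it was added after the values were seen. Bases covered by both transcripts count in both entries, so the ratio follows the balance of isoforms without being their molar ratio. It was 1.98, 1.91 and 2.20 in knockdown with TTX, against 1.70, 1.93 and 2.04 untreated, and 2.42, 2.30 and 2.40 in wild-type with TTX, against 1.96, 2.17 and 2.18 untreated. Wild-type libraries with TTX lay above all others in this ratio. Their mean was 2.37 ± 0.07 against 2.11 ± 0.12 in wild-type untreated (SD, n = 3 each), a difference of 0.27 with an exact permutation test (two-sided) at p = 0.1. With TTX, knockdown averaged 2.03 ± 0.15 against 2.37 ± 0.07 in wild-type, a difference of -0.34 with the same p. Within knockdown the means were 2.03 ± 0.15 with TTX and 1.89 ± 0.18 untreated, with overlapping libraries and an exact permutation p of 0.5. Untreated, they were 1.89 ± 0.18 in knockdown and 2.11 ± 0.12 in wild-type (exact permutation p = 0.2). After adjustment over these 4 comparisons the lowest value was 0.2, and 0.1 is the smallest p that 3 against 3 libraries can give. How often the ratio of 2 entries of a gene separates groups in this way was not computed, so the separation is a description. The astrocyte marker sum was higher with TTX in 6 of 6 pairs and this ratio in 5 of 6, and the part of the first in the second was not tested.

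**Figure D3:**
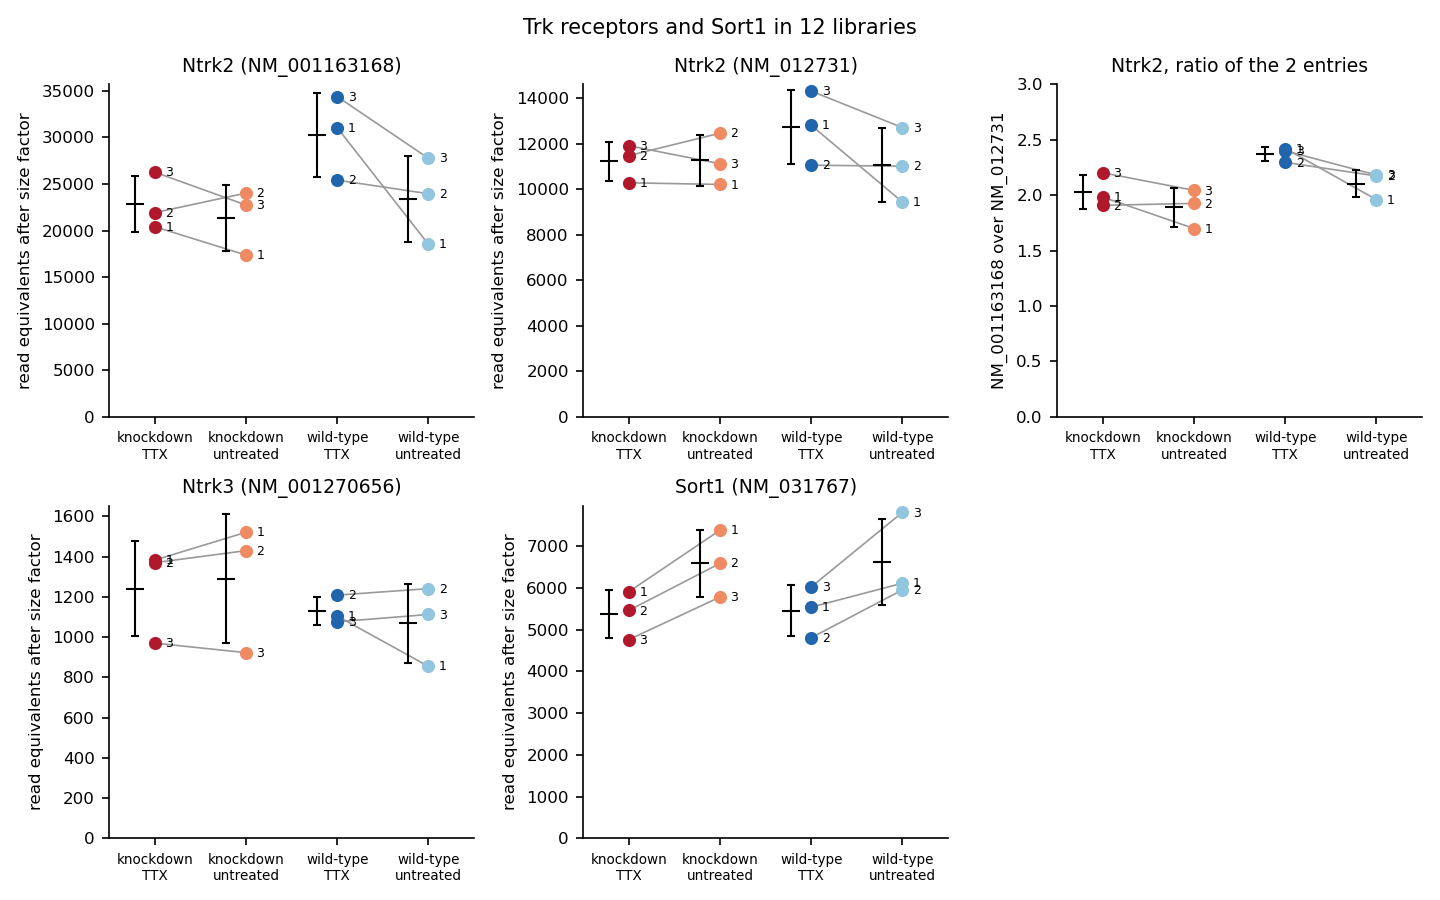
Read equivalents after size factor (y axes, linear from 0) of Ntrk2, Ntrk3 and Sort1, and the ratio of the 2 Ntrk2 entries, in the 4 groups; points are numbered libraries, grey lines join pairs, and bars are the mean and SD of 3 libraries. The ratio in wild-type with TTX, 2.30 to 2.42, lies above every other library, and all 6 Sort1 lines run upwards from TTX to untreated.

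Ntrk3, encoding TrkC, differed more between cultures of a genotype than between groups. NM_001270656 held 1383, 1370 and 970.0 read equivalents in knockdown with TTX, against 1521, 1430 and 923 untreated. It held 1105, 1209 and 1076 in wild-type with TTX, against 855, 1241 and 1113 untreated. Knockdown culture 3 was low in both its libraries, and the groups overlapped in every comparison. The limma TTX change over both genotypes was 0.03 (SE 0.07, adjusted p = 0.839 with each culture as a term) and the knockdown minus wild-type change was 0.19 (SE 0.16, adjusted p = 0.554 with groups alone). Group means ran in the order knockdown untreated (1291 ± 322), knockdown with TTX (1241 ± 235), wild-type with TTX (1130 ± 70) and wild-type untreated (1069 ± 197; SD, n = 3 each), and the SDs of neighbours overlapped throughout. The 3 Ntrk3 entries shared at least 99.3% of their reads in every library.

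Ngfr, encoding p75, was near the lower limit of these libraries. It held 12.2, 6.6 and 6.1 read equivalents in knockdown with TTX, against 19.8, 6.3 and 9.1 in knockdown untreated. It held 2.0, 5.1 and 2.7 in wild-type with TTX, against 11.1, 7.8 and 13.3 in wild-type untreated, which before size factors were 1.9, 5.8 and 2.0 reads against 12.0, 8.0 and 12.0. Ngfr reached the filter's 10 read equivalents only in knockdown library 1 with TTX, knockdown library 1 untreated and wild-type libraries 1 and 3 untreated. No wild-type library with TTX reached it, so Ngfr entered the tests mainly through untreated libraries. The wild-type groups did not overlap, as was the case for 6.61% of all entries in this direction. In knockdown the groups overlapped, library 1 being the highest in each. The TTX change was -0.36 in knockdown (SE 0.31, limma adjusted p = 0.592 with each culture as a term). In wild-type it was -1.51 (SE 0.41, limma adjusted p = 0.499 with groups alone, where 0.0155% of entries were called; SE 0.31, adjusted p = 0.0566 with each culture as a term).

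Over both genotypes the TTX change of Ngfr was -0.93, which passed with each culture as a term (SE 0.22, limma adjusted p = 0.0407) and not with groups alone (SE 0.29, adjusted p = 0.267). Over the alternatives other than a single library or pair left out, mostly refits of groups alone, its adjusted p lay between 0.01 and 0.406. The size of the change depended on the scale, at -0.43 with a pseudocount of 10 and -1.10 on the values as deposited, and in wild-type at -0.65 and -1.80. The call was lost without any pair other than wild-type pair 2, with adjusted p up to 0.14. The difference between its 2 TTX changes, 1.14 (SE 0.44), did not pass (limma adjusted p = 0.971 with each culture as a term). With TTX, Ngfr was higher in knockdown than in wild-type with no overlap of libraries, by 1.15 on the log2 scale (SE 0.41, limma adjusted p = 0.555 with groups alone), and 6.47% of entries were higher without overlap in that comparison.

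Sort1, encoding sortilin, was lower with TTX in 6 of 6 pairs, by the least in wild-type pair 1. It held 5910, 5461 and 4762 read equivalents in knockdown with TTX, against 7383, 6588 and 5782 untreated. It held 5538, 4807 and 6024 in wild-type with TTX, against 6111, 5952 and 7809 untreated. The groups overlapped in both genotypes, and within pairs the untreated level was 1.10 to 1.30 times the TTX level. The TTX change over both genotypes was -0.28, which passed with each culture as a term (SE 0.05, limma adjusted p = 0.0199) and not with groups alone (SE 0.11, adjusted p = 0.41). Over the same alternatives, mostly refits of groups alone, its adjusted p lay between 0.00715 and 0.681. With each culture as a term the change still passed without wild-type pair 1 or wild-type pair 2. The call was lost without each of the other pairs, with adjusted p up to 0.0971. Of all entries tested, 12.1% were lower with TTX in 6 of 6 pairs. The summed neuron markers were too, and their part in the Sort1 levels was not tested.

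Within a genotype Sort1 passed in neither. Its change was -0.29 in knockdown (SE 0.07, limma adjusted p = 0.108 with each culture as a term) and -0.28 in wild-type (SE 0.07, adjusted p = 0.0925). Between genotypes it averaged 5981 ± 688 over knockdown and 6040 ± 791 over wild-type cultures (SD, n = 3 each; exact permutation p = 0.9). The order of group means was wild-type untreated at 6624 ± 1029, knockdown untreated at 6585 ± 801, wild-type with TTX at 5456 ± 613 and knockdown with TTX at 5378 ± 578 (SD, n = 3 each). Of these neighbours, the untreated and TTX groups differed by more than the SD of each, and the 2 genotypes within a treatment by less.

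**Figure D4:**
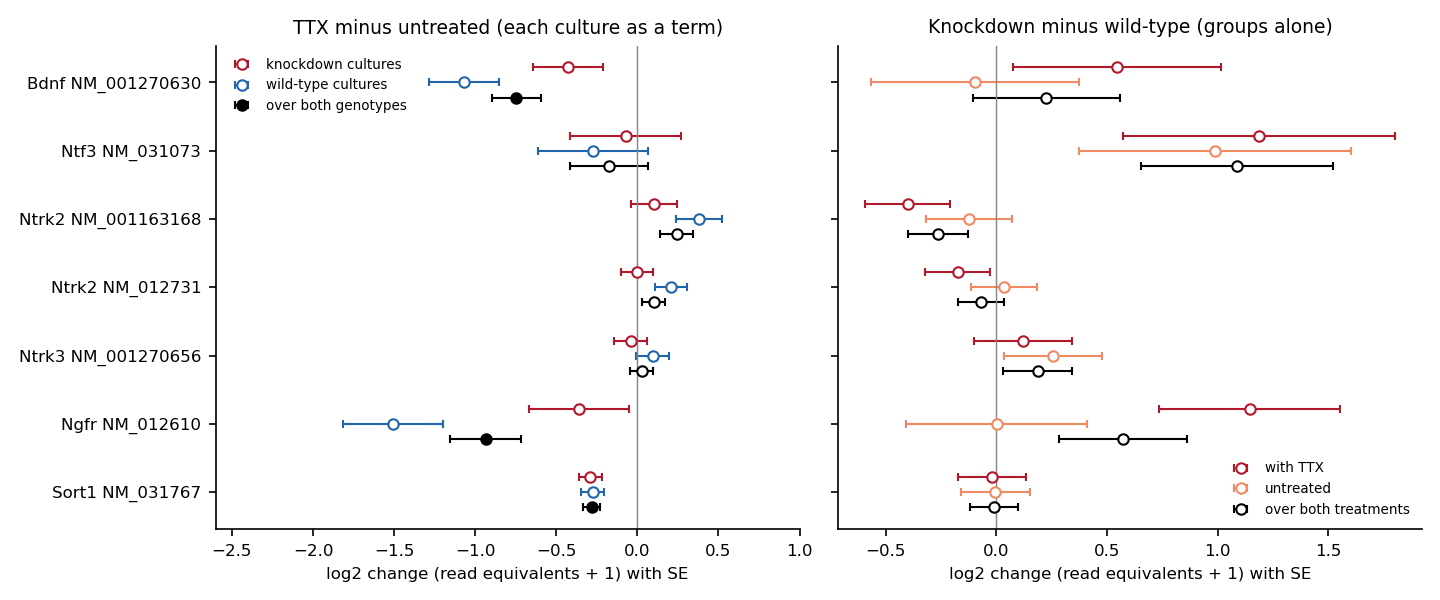
Log2 changes of read equivalents + 1 (x axes) with SE bars for 7 member entries (rows); on the left TTX minus untreated with each culture as a term, on the right knockdown minus wild-type with groups alone. Filled points passed an adjusted p of 0.05: Bdnf, Ngfr and Sort1 over both genotypes on the left at -0.75, -0.93 and -0.28, and none on the right.

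Of the 7 entries with the highest mean for their gene or isoform, 3 thus passed for TTX over both genotypes with each culture as a term, all as lower, where 8.07% of all entries passed as lower. Ngfr among them had entered the tests mainly through untreated libraries, so its call is not independent of the filter. With groups alone none of the 3 passed, so these calls rest on the inferred pairing of libraries. For knockdown against wild-type 0 passed in either fit, where 0.0309% of entries over both treatments passed with groups alone and 0.309% with number as a term. Without adjustment, limma with groups alone put Ntf3 over both treatments and Ngfr with TTX under 0.05, as it did 2213 and 1097 of all entries. That fit and the one with number as a term count the 2 libraries of a culture as separate. With culture as a random block 0 entries were called for knockdown over both treatments. Ntf3 there had an unadjusted limma p of 0.1, with 942 entries under 0.05.

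The wider pathway was read from 8 lists of 133 genes, 116 of which were tested. With each culture as a term, 16 of the 116 passed for TTX over both genotypes, 5 as higher and 11 as lower. That is 13.8%, against 13.7% of all entries. In knockdown 0 passed, where 0.642% of all entries did, and in wild-type 3 passed, all as lower (2.59%, where 3.21% of all entries did). For knockdown against wild-type 0 passed in either fit, and with groups alone 0 passed in any comparison.

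Precursor processing held 2 of the 11 that fell. Pcsk2, a proprotein convertase of dense-core vesicles, fell by 0.79 on the log2 scale (SE 0.08, limma adjusted p = 0.00679) and Pcsk5, another convertase, fell by 0.28 (SE 0.07, adjusted p = 0.0483), among 9 tested genes with a median of -0.17 against 0.02 over all entries. Pcsk2 also fell in wild-type alone by 0.91 (adjusted p = 0.0259). Among 20 adaptors with a median of 0.05, Shc3, a neuronal adaptor of Trk receptors, fell by 0.66 (adjusted p = 0.00964) and Gab1, a docking protein, rose by 0.26 (adjusted p = 0.0307). Of the 4 sortilin relatives in the files, Sorcs3 averaged 378.4 ± 52.3 with TTX against 482.9 ± 86.9 untreated in knockdown and 366.1 ± 75.8 with TTX against 471.9 ± 52.8 untreated in wild-type (SD, n = 3 each). Sorcs1 ran the other way, at 1989 ± 39 with TTX against 1720 ± 163 untreated in knockdown and 1946 ± 105 with TTX against 1671 ± 140 untreated in wild-type. None of Sorcs1, Sorcs2, Sorcs3 or Sorl1 passed.

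Downstream of the receptors the calls ran both ways. In the calcium arm Camk4, a nuclear kinase that acts on CREB, fell by 0.90 (SE 0.12, limma adjusted p = 0.0109) and Camk2b, a synaptic kinase subunit, by 0.41 (SE 0.05, adjusted p = 0.0101), while Itpr1, the IP3 receptor, rose by 0.32 (adjusted p = 0.0318). Camk2b and Mapk9 were, with Pcsk2, the genes that passed in wild-type alone. In the p75 arm the 3 JNK genes fell, Mapk8 by 0.39, Mapk9 by 0.31 and Mapk10 by 0.40 (limma adjusted p from 0.0108 to 0.0294), as did Bex1, which encodes a p75-binding protein, by 0.54 (adjusted p = 0.0283). Jun, which encodes a target of the JNK kinases, rose by 0.52 (SE 0.08, adjusted p = 0.0139). In the PI3K arm Pik3r1, a regulatory subunit, rose by 0.24 (adjusted p = 0.0422) and Foxo3, a transcription factor restrained by AKT, by 0.28 (adjusted p = 0.0288), and in the Ras arm Hras fell by 0.36 (adjusted p = 0.0343). The medians of these 4 arms, 0.02 to 0.03, lay beside the median of 0.02 over all entries. Of 19 tested regulators of Bdnf transcription, 0 passed.

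The genes whose levels were most like those of Bdnf over the 12 libraries were ranked by Pearson r of log2 values among 9966 genes with a mean of at least 100 read equivalents. They were Syt12 (r = 0.944), a synaptotagmin, Chrna5 (0.916), a nicotinic receptor subunit, Vgf (0.887), a neuropeptide precursor, Mylip (0.883), a ubiquitin ligase, and Diras2 (0.882), a small GTPase. The libraries share groups, cultures and size factors, so these values are a description. Syt12 averaged 180.5 ± 23.0 with TTX against 222.9 ± 66.1 untreated in knockdown, and 167.1 ± 21.8 with TTX against 224.9 ± 51.0 untreated in wild-type (SD, n = 3 each). Diras2 averaged 373.0 ± 169.8 with TTX against 837.4 ± 356.6 untreated in knockdown, and 210.9 ± 66.1 with TTX against 633.6 ± 262.1 untreated in wild-type. The TTX change over both genotypes was -2.31 for Vgf, -1.35 for Diras2, -0.62 for Mylip, -0.34 for Syt12 and -0.27 for Chrna5 on the log2 scale, given with no test because these genes were chosen for following Bdnf. Among the other members with a mean of at least 100 read equivalents, r with Bdnf was 0.35 for Sort1, 0.22 for Ntrk3 and -0.44 for Ntrk2. Ntf3 and Ngfr lay below that mean and were not compared.

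The authors' deposited table scores each comparison with a z value signed by direction and a p value, with no statement of adjustment. In the authors' deposited table Bdnf NM_001270630 had a z of -0.71 (p = 0.24) for TTX in knockdown and -2.37 (p = 0.00899) for TTX in wild-type. Adjusted here over 18667 entries of the authors' deposited table, the wild-type p became 0.509, and 101 entries lay under 0.05. For knockdown against wild-type over both treatments the authors' deposited table gave Ntf3 NM_031073 a z of 2.68 (p = 0.00369, and 0.0815 after adjustment here). For Ntrk2 NM_001163168 the authors' deposited table gave a z of -2.04 (p = 0.0206) in knockdown against wild-type with TTX and 1.57 (p = 0.058) for TTX in wild-type, which became 0.578 and 1.0 after adjustment here. In the authors' deposited annotation tables, Bdnf stood in 88 of 626 terms of the table whose name marks genes lowered in wild-type, and in 55 of 256 terms of the table whose name marks genes blocked in the hairpin cultures. It stood in 0 of 335 terms of the table marked as lowered in common, and the other 5 genes stood in none of the 3 tables. No label or header used here says how the authors chose the genes of these tables. The difference between the 2 TTX changes of Bdnf, given above from limma, did not pass.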

How the data were processed

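The deposited signal proved, from the values, to be summed base coverage of a RefSeq transcript over the size factor of its library. In every library 100% of values were whole multiples, within 0.01, of a step, which gives that factor. Low values clustered at 42 steps (5123 values, against 219 at the next most common), taken as the read length. Levels are deposited values divided by 42. Per the labels' protocols, libraries were strand-specific, single-end and pooled 4 to a lane. Tools that the authors used, per the submitters' processing notes, were GSNAP, DESeq and DESeq2 with rn6, and no version is named. The authors' score is a signed z value. The authors' p-value was within 0.002 of 1 tail of z where it was under 0.5, and at higher p-values z was listed at 0.005 in size. The authors' deposited annotation tables also hold term counts, percent of the list and fold enrichment, which were not used here.

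Of 18905 deposited entries, 18697 were distinct, for 17339 symbols. Testing needed 10 read equivalents or more in 3 or more libraries, met by 12938 entries and missed by 5759. Log2(read equivalents + 1) was fitted with limma 3.58.1 (R 4.3.3), groups alone as the term (8 residual degrees of freedom), on all 12 libraries, with Benjamini-Hochberg adjustment over all entries at a two-sided threshold of 0.05. As the replicate block, each culture was a term for TTX (4 residual degrees of freedom) and the number a term for knockdown. Culture as a random block had a correlation of 0.717. Single values over cultures were compared by exact permutation in SciPy 1.17.1. Groups alone and the replicate block were also run on simulated data with no culture effect. The changes put in were larger than those fitted for the members, and only in entries above the median level. That run cannot show how the culture term performs on these libraries, or how changes of the members' size are recovered. Alternatives were another pseudocount, no filter, other scalings, 1 entry for each symbol, a trend in the prior variance, and libraries left out, each run with groups alone. The replicate block was rerun only with single pairs left out.

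For pairing, deviations from the group means were correlated. Within a genotype, the TTX library and the untreated library numbered alike gave r = 0.78, 0.697 and 0.766 for knockdown numbers 1 to 3 and r = 0.448, 0.618 and 0.85 for wild-type numbers 1 to 3, so they were taken as pairs. Between genotypes correlations ran from -0.288 to 0.02. That a pair is 1 culture is inferred and not stated by the labels, and a shared lane or batch cannot be told apart from it.

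Named genes were all members, Ehmt1, the pathway genes called in any comparison, up to 8 for a list, and the 5 genes most like Bdnf. Ntf4 and the sortilin relatives are named from the list of other ligands and receptors, and some genes of the lists are not reported here. The members and lists were chosen with earlier results of these data known. All 21 member entries matched RefSeq, and promoter windows came from RefSeq on GRCr8, while coordinates on rn6 were not used here.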

Additional observations from a re-analysis of the deposited data

How the results depend on the processing

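The replicate block called 415 entries for TTX in wild-type, 83 in knockdown and 1767 over both genotypes, against 2, 0 and 25 with groups alone, and 40 against 4 for knockdown over both treatments. Culture as a random block called 845, 413, 2210 and 0. With the replicate block, Bdnf (-0.75), Ngfr (-0.93) and Sort1 (-0.28) passed over both genotypes, as they did with the random block, which also passed Bdnf (-1.07) and Ngfr (-1.51) in wild-type. The replicate block changed no other call of a member. For TTX in wild-type, 4 entries were called with a pseudocount of 10, with 1 entry for each symbol or with a trend in the prior variance, and 0 with only the libraries compared. Over both genotypes a pseudocount of 10 or a trend called 64. Without a filter, 3 entries were called for TTX in knockdown, 1 and 2 for knockdown untreated and with TTX, and 12 over both treatments, where a trend called 2. Leaving out both knockdown libraries numbered 2, an alternative chosen after seeing the data, left 0 entries for TTX in wild-type and 6 over both genotypes.

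Without each library in turn, groups alone called 0 to 3 entries for TTX in wild-type, 0 to 1 in knockdown and 11 to 32 over both genotypes, 0 to 1 for knockdown with TTX and 0 to 4 over both treatments. Without each pair in turn, also chosen after seeing the data, the replicate block called 12 to 134 in wild-type, 0 to 157 in knockdown and 153 to 1739 over both genotypes. Over those pairs the TTX change over both genotypes ran from -0.92 to -0.63 for Bdnf, from -1.18 to -0.81 for Ngfr and from -0.32 to -0.26 for Sort1. In wild-type it ran from -1.42 to -0.83 for Bdnf, which passed without pair 1, and from -1.99 to -1.25 for Ngfr, which passed without pair 2. The cause of the losses was not tested, and a fit without a pair also has fewer libraries.

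Sign changes were found among member changes that did not pass. For knockdown untreated, Bdnf gave 0.25 and Ntrk2 NM_012731 gave -0.042 without the knockdown libraries numbered 2, and Ngfr gave -0.0012 after rescaling and -0.010 on the values as deposited. For TTX in knockdown, Ntrk2 NM_012731 gave 0.055 without those libraries. Without single libraries, knockdown untreated ran from -0.55 to 0.28 for Bdnf, -0.43 to 0.33 for Ngfr, -0.28 to 0.017 for Ntrk2 NM_001163168, -0.076 to 0.14 for NM_012731 and -0.091 to 0.12 for Sort1. Knockdown over both treatments ran from -0.0001 to 0.41 for Bdnf and -0.057 to 0.050 for Sort1, and knockdown with TTX from -0.11 to 0.065 for Sort1. TTX in knockdown ran from -0.70 to 0.34 for Ntf3, -0.69 to 0.063 for Ngfr, -0.040 to 0.19 for Ntrk2 NM_001163168, -0.072 to 0.072 for NM_012731 and -0.27 to 0.13 for Ntrk3. TTX in wild-type ran from -0.81 to 0.26 for Ntf3 and -0.058 to 0.21 for Ntrk3, and over both genotypes from -0.49 to 0.096 and from -0.087 to 0.11. Without single pairs in the replicate block, Ntf3 ran from -0.77 to 0.043 in wild-type and from -0.36 to 0.20 in knockdown. Ntrk3 ran from -0.043 to 0.17 in wild-type, from -0.10 to 0.0051 in knockdown and from -0.043 to 0.062 over both genotypes, and Ntrk2 NM_012731 from -0.054 to 0.055 in knockdown. Depth limits Ngfr, since its wild-type libraries with TTX held 1.9 to 5.8 reads before size factors. Intervals for counting error were not computed.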
